A study of Mus musculus with 2 samples.

Results

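Mitochondrial ribosomal protein genes were followed in mouse E14.1 embryonic stem cells that carry T136A AHCY, set against E14.1 cells with WT AHCY. AHCY breaks down S-adenosylhomocysteine, the by-product of methylation by S-adenosylmethionine, and in T136A a threonine of the enzyme is replaced by alanine. Members were all genes whose mouse symbol is Mrpl or Mrps followed by a number, leaving out pseudogene symbols with -ps. The rule found 77 members among 25749 gene identifiers, 48 with an Mrpl and 29 with an Mrps symbol, and Mrpl53 is not analysed here. RNA-seq was done on 1 library of each genotype. The differences therefore have no replicate check, and "higher" and "lower" compare these libraries only. The labels give the genotype but neither the way the T136A line was made nor the number of clones.

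The mitochondrial ribosome translates the few messenger RNAs of the mitochondrial genome, all of which encode subunits of the respiratory chain and of ATP synthase. Its ribosomal RNAs are made in the organelle, while all of its proteins are encoded in the nucleus, made in the cytosol and imported. Some of these proteins have counterparts in the bacterial ribosome, and others were added during the evolution of mitochondria. The nuclear genes are broadly expressed and tend to be driven by housekeeping promoters that bind factors such as NRF1, GABP and YY1.

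Levels are given in RPKM, in which reads of a gene are divided by its exon length and by the reads of its library. The totals implied by the values were 18396840 reads for T136A and 17506153 reads for WT. Log2 ratios compare T136A with WT after 1 RPKM was added to both, which understates the change of weak genes, and folds are plain RPKM ratios of T136A over WT, or of WT over T136A where written as lower. Where whole reads could be recovered, a fold carries a 95% exact (Clopper-Pearson) counting interval, which covers counting error only and says nothing on differences between cultures. All 10 listed stem cell markers were present in both libraries, from 38.7 to 1969 RPKM in T136A and from 65.1 to 2182 RPKM in WT. Their levels were not all alike: 3 were at least 1.5-fold higher in T136A (10.4% of all genes) and 1 lower (11.3% of all genes). Utf1 stood at 284 RPKM in T136A and 94.2 RPKM in WT, and Sall4 at 38.7 RPKM in T136A and 65.1 RPKM in WT. The median log2 ratio of these 10 genes was -0.18. Of the fibroblast feeder markers 10 were matched, with a summed level of 89.5 RPKM in T136A and 124 RPKM in WT. Fibronectin, Fn1, which other cells also make, held most of that sum in WT (32.9 RPKM in T136A, 93.4 RPKM in WT), and the collagen gene Col1a2 stood at 0.0525 RPKM in T136A and 0.0368 RPKM in WT. None of the 10 was at 0 in T136A, and Postn and Acta2 were at 0 in WT. The lower sum in T136A rests on Fn1: of the 6 feeder markers at or above 1 RPKM, 4 were above 0 in log2 ratio, with a median of 0.55. Vim stood at 19.9 RPKM in T136A and 10.9 RPKM in WT, S100a6 at 28.0 RPKM in T136A and 13.3 RPKM in WT, and Thy1 at 5.32 RPKM in T136A and 2.50 RPKM in WT. The part of these markers in the members' values was not tested. Ahcy itself stood at 56.6 RPKM in T136A and 52.9 RPKM in WT, which does not check an amino acid replacement.

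As a group the mitochondrial ribosomal protein genes had nearly the same level in both libraries, while a few members stood up to about 2-fold higher or up to 1.82-fold lower in T136A. Of the 77 members 76 reached 1 RPKM, each of them in both libraries. Their summed level was 3018 RPKM in T136A and 3020 RPKM in WT. The median log2 ratio was 0.04, against -0.03 over all 12320 genes at or above 1 RPKM. In T136A, 4 members were at least 1.5-fold higher on the log2 scale (Mrpl14, Mrps12, Mrpl47 and Mrps6), where 10.4% of all genes were. At least 1.5-fold lower were 5 members (Mrps34, Mrpl9, Mrpl27, Mrpl38 and Mrpl49), where 11.3% of all genes were. The split of 4 higher and 5 lower became 4 and 3 with median-of-ratios or TMM scaling and 7 and 3 with upper-quartile scaling. The remaining 67 members, 88.2%, lay within 1.5-fold, compared with 78.3% of all genes. At 2-fold, 2 members were higher (3.13% of all genes) and 0 lower (3.1% of all genes). The central 68% of members ran from -0.28 to 0.37 in log2 ratio and that of all genes from -0.47 to 0.44. In bulk RNA, a lower level in every cell and fewer cells that express a gene cannot be told apart.

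**Figure D1:**
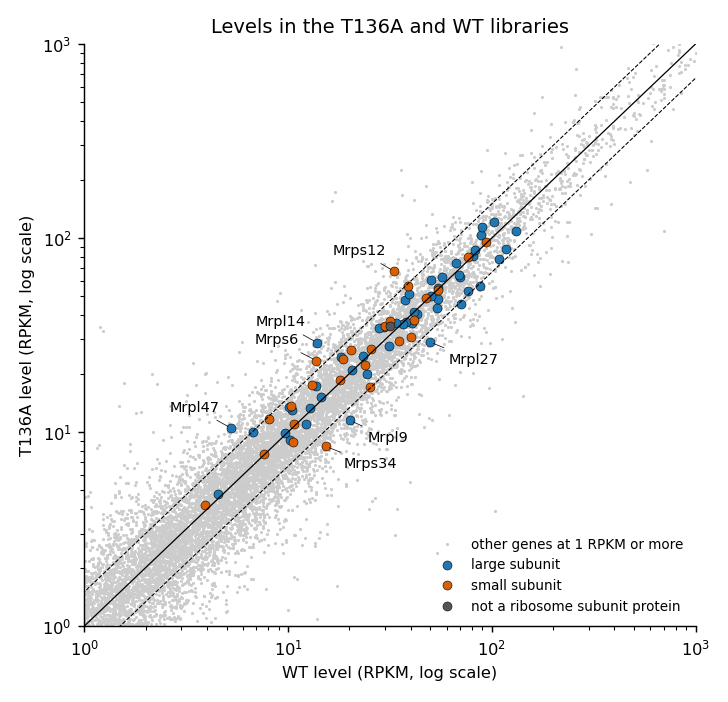
Level of each mitochondrial ribosomal protein gene in the T136A library (vertical, RPKM, log scale) against the WT library (horizontal, RPKM, log scale), coloured by ribosomal subunit, over other genes in grey; both axes are cut at 1 and 1000 RPKM. The solid line marks equal levels and the dashed lines a 1.5-fold difference; 67 of the 76 members lie within 1.5-fold on the log2 scale with 1 RPKM added.

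Levels among members spanned a wide range and kept much the same order. From the weakest to the strongest of the 76 members, RPKM differed 28.7-fold in T136A and 33.6-fold in WT. The order of the levels had a Spearman correlation of 0.948 between the libraries across these members, which share the libraries and are not replicates. Over all genes at or above 1 RPKM it was 0.944, so the kept order is not particular to the members. Of the 10 strongest members 9 were the same in both. Mrpl34, a small protein of the large subunit, was the strongest in T136A with 120 RPKM (102 RPKM in WT). Mrpl2, whose bacterial relative lies near the peptidyl transferase centre, was the strongest in WT with 132 RPKM (108 RPKM in T136A). Mrpl52, Mrpl28, Mrps28, Mrpl45, Mrpl10, Mrpl22 and Mrpl40 were also among the strongest in both libraries. Mrps18c was the weakest of the 76 members, at 4.19 RPKM in T136A and 3.93 RPKM in WT, followed by Mrpl48 at 4.81 RPKM in T136A and 4.51 RPKM in WT. Many members have long annotated exon sets that include retained introns, such as Mrpl15 with 8487 exon bases, and a long denominator lowers an RPKM in both libraries alike. Mrpl33 did not reach 1 RPKM: it stood at 0.571 RPKM (77 reads) in T136A and 0.359 RPKM (46 reads) in WT over 7326 annotated exon bases. Part of Mrpl33, 261 exon bases, overlaps the same-strand transcript Gm43809, whose value is not analysed here.

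Large subunit members with a bacterial counterpart include the proteins around the peptidyl transferase centre, the exit tunnel and the stalk that recruits translation factors. Of 30 such genes 29 passed the minimum, with a median log2 ratio of 0.04; 2 were at least 1.5-fold higher (10.4% of all genes) and 2 at least 1.5-fold lower (11.3% of all genes). Mrpl14, a protein of the face that meets the small subunit, stood at 28.9 RPKM in T136A (504 reads) and 13.9 RPKM in WT (231 reads). That is 2.08-fold higher in T136A (1.77 to 2.44), the largest log2 ratio of the group, at percentile 96.9 of all genes. Mrpl47, whose bacterial relative sits beside the exit of the peptide tunnel, stood at 10.5 RPKM in T136A and 5.25 RPKM in WT, 1.997-fold higher (1.77 to 2.25). Mrpl9 stood at 11.5 RPKM in T136A and 20.1 RPKM in WT, 1.75-fold lower (1.58 to 1.95). Mrpl27, whose bacterial relative reaches towards the peptidyl transferase centre, stood at 29.1 RPKM in T136A and 49.8 RPKM in WT, 1.71-fold lower (1.54 to 1.91).

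Between those ends lay the stalk and core proteins. The stalk gene Mrpl12 had 63.2 RPKM in T136A and 57.2 RPKM in WT, and Mrpl10, which anchors the stalk, had 87.1 RPKM in T136A and 82.3 RPKM in WT. Mrpl11, at the foot of the stalk, had 35.9 RPKM in T136A and 36.9 RPKM in WT. The stalk genes thus differed by log2 ratios of 0.14, 0.08 and -0.04. Mrpl2, with a log2 ratio of -0.28, was 1.22-fold lower (1.15 to 1.29), and Mrpl3, a neighbour of the peptidyl transferase centre, had a ratio of 0.06 with an interval of the fold from 0.978 to 1.12. The tunnel proteins Mrpl22, Mrpl24 and Mrpl4 had log2 ratios of 0.01, 0.00 and -0.06, and all of their intervals held a fold of 1. Mrpl21 stood at 51.4 RPKM in T136A and 39.3 RPKM in WT, 1.31-fold higher (1.22 to 1.40), and Mrpl13 at 13.4 RPKM in T136A and 10.1 RPKM in WT, 1.33-fold higher (1.24 to 1.43). Mrpl16 and Mrpl1 followed with log2 ratios of 0.35 and 0.30. On the lower side, Mrpl18, a relative of the bacterial protein that holds the 5S RNA, stood at 43.4 RPKM in T136A and 53.9 RPKM in WT, and Mrpl17 at 19.9 RPKM in T136A and 24.3 RPKM in WT. Other genes of this class lay closer to 0: Mrpl55, Mrpl19 and Mrpl15 had log2 ratios from -0.17 to -0.05, Mrpl35, Mrpl32, Mrpl36 and Mrpl23 from 0.02 to 0.04, and Mrpl30 and Mrpl20 had 0.11 and 0.15. Mrpl28 and the strongly expressed Mrpl34 stood further out, with log2 ratios of 0.23 and 0.24.

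Large subunit proteins found only in mitochondrial ribosomes were spread around 0. The 20 genes had a median log2 ratio of -0.05, with 0 at least 1.5-fold higher (10.4% of all genes) and 2 at least 1.5-fold lower (11.3% of all genes). Mrpl38, of the central protuberance, stood at 45.4 RPKM in T136A (2132 reads) and 70.4 RPKM in WT (3144 reads), 1.55-fold lower (1.47 to 1.64). Mrpl49 stood at 56.5 RPKM in T136A and 87.0 RPKM in WT, 1.54-fold lower. Both sat just past the 1.5-fold line and fell inside it with 5 added to each RPKM and under 3 of 4 other scalings. Next came Mrpl44, a protein with a ribonuclease fold (53.2 RPKM in T136A, 76.7 RPKM in WT). Mrpl40 of the central protuberance had 77.6 RPKM in T136A and 108 RPKM in WT. Mrpl45, which ties the ribosome to the inner membrane at the tunnel exit, was 1.33-fold lower (1.28 to 1.39), at 87.5 RPKM in T136A and 117 RPKM in WT. At the upper end, Mrpl58, which can release stalled peptides from transfer RNA, stood at 9.98 RPKM in T136A and 6.70 RPKM in WT, 1.49-fold higher (1.31 to 1.70). Mrpl37 stood at 24.3 RPKM in T136A and 18.3 RPKM in WT, 1.33-fold higher (1.24 to 1.42). Nearer to 0, Mrpl54 and Mrpl57 had log2 ratios of -0.10 and 0.07, and Mrpl42 had the same level within counting error, at 50.2 RPKM in T136A and 50.3 RPKM in WT. Mrpl39, Mrpl50 and Mrpl51 had log2 ratios of -0.14, -0.17 and -0.15, whereas Mrpl52, Mrpl41 and Mrpl43 had 0.34, 0.29 and 0.27.

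**Figure D2:**
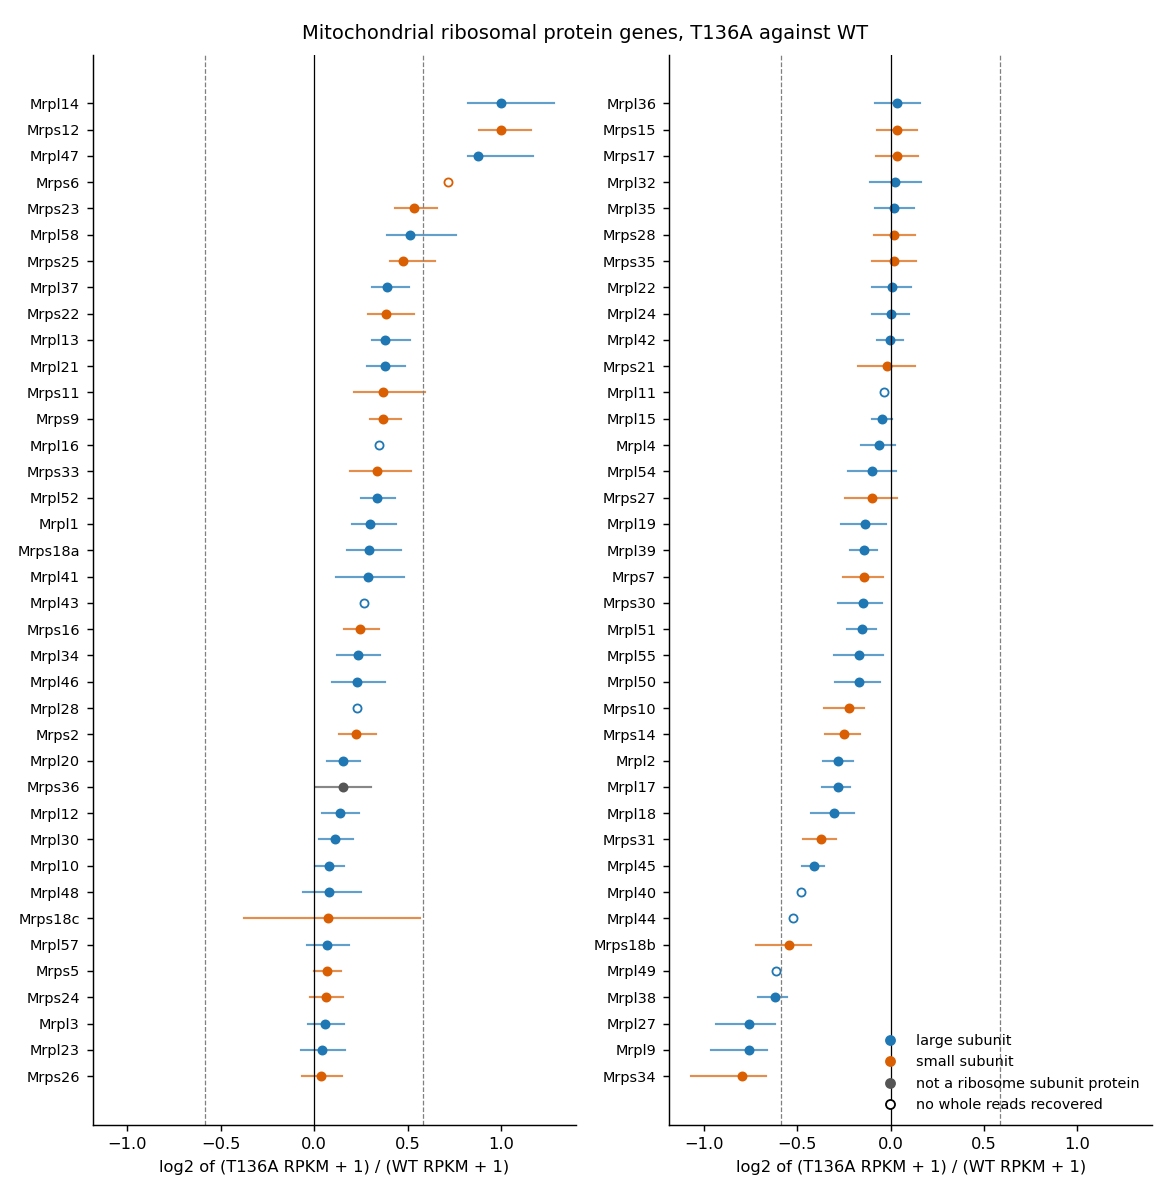
Log2 ratio of T136A over WT (horizontal, RPKM plus 1) for the 76 members at or above 1 RPKM, sorted from highest (upper left) to lowest (lower right) and coloured by subunit. Lines are 95% counting intervals of the plain RPKM fold, open circles are members without recovered whole reads, and dashed lines mark 1.5-fold; the points run from -0.80 for Mrps34 to 1.00 for Mrpl14.

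Small subunit genes had a median log2 ratio of 0.05 over 26 members, with 2 at least 1.5-fold higher (10.4% of all genes) and 1 at least 1.5-fold lower (11.3% of all genes). The median of the large subunit, over 49 members, was 0.02, and the difference of large minus small was -0.03. Summed levels differed in direction: large subunit genes had 2168 RPKM in T136A and 2240 RPKM in WT. Small subunit genes had 814 RPKM in T136A and 749 RPKM in WT, and this split was not tested. Mrps12, whose bacterial relative S12 forms part of the decoding centre, stood at 67.4 RPKM in T136A (1289 reads) and 33.2 RPKM in WT (604 reads), 2.03-fold higher (1.84 to 2.24). By level it took place 12 among the members in T136A and place 38 in WT. Mrps6 stood at 23.3 RPKM in T136A and 13.8 RPKM in WT, 1.69-fold higher, without recovered whole reads. Among the genes with bacterial counterparts, Mrps11, a relative of a protein of the platform, stood at 13.7 RPKM in T136A and 10.4 RPKM in WT, 1.32-fold higher (1.16 to 1.51). Mrps9, Mrps16 and Mrps2 had log2 ratios of 0.37, 0.25 and 0.23. Mrps7, Mrps10 and Mrps14 had log2 ratios of -0.14, -0.23 and -0.25, Mrps21, Mrps24 and Mrps5 had -0.02, 0.06 and 0.07, and Mrps15, Mrps17 and Mrps28 lay between 0.02 and 0.03.

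Mitochondria-specific small subunit genes held the lowest member of the whole group. Mrps34, loss of which impairs mitochondrial translation in mice, stood at 8.43 RPKM in T136A (320 reads) and 15.4 RPKM in WT (555 reads), 1.82-fold lower (1.59 to 2.10). Mrps31 was 1.30-fold lower (1.22 to 1.38), at 30.9 RPKM in T136A and 40.3 RPKM in WT. On the other side, Mrps23 stood at 56.7 RPKM in T136A and 38.9 RPKM in WT, 1.46-fold higher (1.35 to 1.58). Mrps22 and Mrps25, genes in which human mutations cause respiratory chain deficiency, stood at 17.5 and 11.7 RPKM in T136A, against 13.2 and 8.10 RPKM in WT. Mrps35, among the weakest members, stood at 7.75 RPKM in T136A and 7.65 RPKM in WT. Mrps26, Mrps35 and Mrps27 had log2 ratios of 0.04, 0.02 and -0.10, and the intervals of their folds held 1.

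The Mrps18 paralogues, all related in sequence to bacterial S18, differed in level and in direction; only Mrps18c is counted here as its counterpart. Mrps18b, of the small subunit, stood at 17.1 RPKM in T136A and 25.4 RPKM in WT, 1.49-fold lower (1.34 to 1.65). Mrps18a, which despite its name is a protein of the large subunit, stood at 13.1 RPKM in T136A and 10.5 RPKM in WT, 1.25-fold higher (1.13 to 1.38). Mrps18c, on few reads (83 in T136A and 74 in WT), gave a fold of 1.07 with an interval from 0.771 to 1.48, so that no difference was detectable at this depth. Mrps30, also a large subunit protein under a small subunit symbol, had 9.13 RPKM in T136A and 10.2 RPKM in WT. Mrps36, which has since been placed in the 2-oxoglutarate dehydrogenase complex and was counted with neither subunit, had 35.3 RPKM in T136A and 31.7 RPKM in WT.

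**Figure D3:**
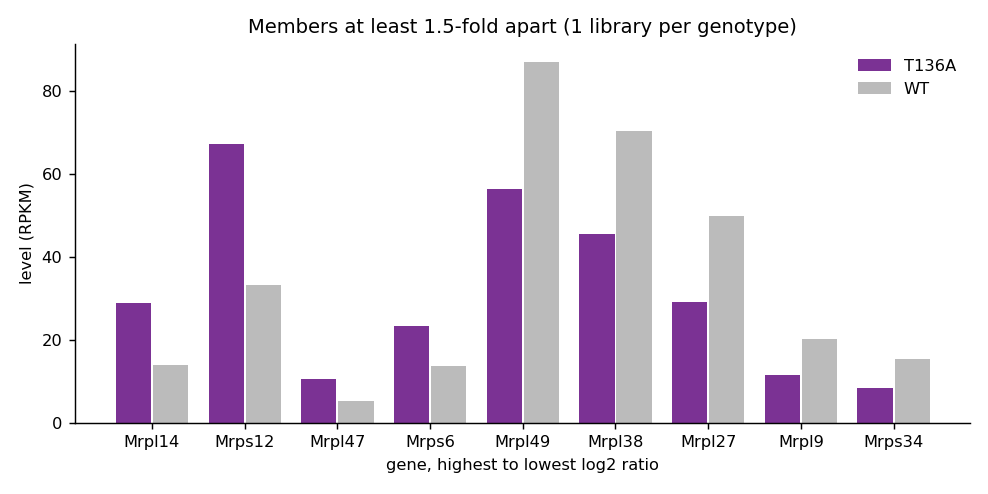
Level (RPKM, linear axis from 0) of the 9 members at least 1.5-fold apart, T136A in purple and WT in grey, 1 library each, with no error bars. Mrpl14 and Mrps12 stand about 2-fold higher in T136A, and the largest absolute gap on the lower side is that of Mrpl49, at 56.5 RPKM in T136A and 87.0 RPKM in WT.

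Read depth was enough to resolve small folds between these libraries. Of the 68 members above the minimum with whole reads in both libraries, 26 had a counting interval above 1, where 31.7% of all genes had one. The interval lay below 1 for 19 members (36.9% of all genes) and held 1 for 23 (31.1% of all genes). All genes include weaker ones, whose intervals are wider. At 5 RPKM or more, 26 of 66 members had an interval above 1, 19 below 1 and 21 holding 1. Of 6501 genes at that level, 2390 had an interval above 1, 2670 below 1 and 1441 holding 1. Above 0 in log2 ratio were 47 of the 76 members (47.4% of all genes) and below 0 were 29 (52.6% of all genes); with upper-quartile scaling 57 were above 0. Chromosome 14, whose genes had a median log2 ratio of 0.32, carries the members Mrpl52, Mrps16 and Mrpl57, at 0.34, 0.25 and 0.07. Without them the members' median was 0.03. The lists of related genes below also hold genes of chromosome 14, where 345 of 453 genes were above 0 (47.4% of all genes). Those in the lists of translation factors and of content markers were all above 0, as was Chchd1 at 0.35. Rpl15, at -0.60, and an assembly gene went the other way. The values of the lists were not computed without that chromosome.

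Shared sequence limits several single values, because no rule for strand or for reads with several matches is given in the sources used here. Exons of 32 members overlap those of another annotated gene, 17 of them over at least 10% of their exon length, and 7 of the 9 members at least 1.5-fold apart are among the 32. Mrps34 is overlapped most: 1309 of its 2064 exon bases lie opposite Mapk8ip3 (1.19 RPKM in T136A, 1.41 RPKM in WT) and 763 are shared with Nme3, whose value is not analysed here. Mrpl14 overlaps Tmem63b on the other strand over 106 of 949 bases, and Tmem63b stood at 6.70 RPKM in T136A and 6.53 RPKM in WT. Mrpl47 overlaps Ndufb5 and Actl6a on the other strand, over 616 and 452 of 4419 bases. Both stood above Mrpl47 in level: Ndufb5 had 11.1 RPKM in T136A and 9.94 RPKM in WT, and Actl6a had 34.1 RPKM in T136A and 26.7 RPKM in WT. Mrps6 overlaps Slc5a3, at 0.528 RPKM in T136A and 0.482 RPKM in WT, over 159 of 1533 bases, and the same-strand gene Gm49711, whose value is not analysed here, over 305 bases. Mrps12 and Mrpl38 overlap no annotated gene. With members overlapped over at least 10% left out, an alternative chosen after seeing the data, 1 member (Mrps12) remained at least 1.5-fold higher and 4 remained lower. The part of the overlaps in these ratios was not tested.

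Processed pseudogene copies were found as well, in part for members that are also overlapped, such as Mrpl27, Mrps18b and Mrpl48. A stretch of at least 200 bases with at least 95% identity in a pseudogene was found for 19 members. Mrps33 stood at 23.8 RPKM in T136A and 18.6 RPKM in WT, beside a pseudogene, Gm5776, at 26.6 RPKM in T136A and 26.7 RPKM in WT. Mrpl48 had a lower level than its pseudogene Mrpl48-ps, which stood at 9.14 RPKM in T136A and 9.61 RPKM in WT. For Mrps18b, the copy Gm13552 was at 8.86 RPKM in T136A and 12.7 RPKM in WT, and for Mrpl27 the copy Gm6304 was at 1.34 RPKM in T136A and 3.19 RPKM in WT; both copies were lower in T136A, as were their parent genes. How reads were split between gene and copy was not tested.

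Many members start close to a neighbour that is read in the opposite direction, which allows a pair of genes at 1 region to be compared. In part of these pairs the starts overlap, so that each gene starts inside the other, as for Mrpl43 and Twnk. In GENCODE M21, 33 members start within 1000 bases of a protein-coding gene on the other strand in a head-to-head arrangement, and both genes reached 1 RPKM in 29 distinct pairs. Both genes had log2 ratios above 0 in 12 pairs and below 0 in 5. The member was above and the neighbour below 0 in 5 pairs, and the reverse held in 7. Of all genes 47.4% were above 0 and 52.6% below 0. The median log2 ratio of the neighbours at or above 1 RPKM was 0.16, against -0.03 over all such genes. Across these 29 pairs, which share the libraries, the Pearson correlation of log2 ratios was -0.21 and the Spearman correlation -0.08.

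The widest split was that of Mrps12 and Sars2. Sars2 encodes the mitochondrial seryl-tRNA synthetase, which charges transfer RNA for the same ribosome, and its annotated start lies 172 bases from that of Mrps12 on chromosome 7. Sars2 stood at 9.22 RPKM in T136A and 16.04 RPKM in WT, 1.74-fold lower (1.56 to 1.93), while Mrps12 was 2.03-fold higher. Mrpl27 was lower and its neighbour Eme1, which encodes part of a DNA repair nuclease, was higher, at 23.9 RPKM in T136A and 15.5 RPKM in WT. The same direction as for Mrps12 and Sars2 was seen for Mrpl13, with a log2 ratio of 0.38, and Mtbp, at 4.22 RPKM in T136A and 8.60 RPKM in WT. Pairs with both genes higher included Mrpl43 and Twnk, the helicase of mitochondrial DNA replication, which had 15.99 RPKM in T136A and 10.1 RPKM in WT; Twnk overlaps 507 of the 1520 exon bases of Mrpl43. Mrps11 and Mrpl46 form a pair of members, with log2 ratios of 0.37 and 0.23, and share 173 exon bases on opposite strands. The part of shared reads in these like directions was not tested. Mrpl32 was near 0 while the proteasome gene Psma2 beside it was 1.76-fold higher (1.68 to 1.84).

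**Figure D4:**
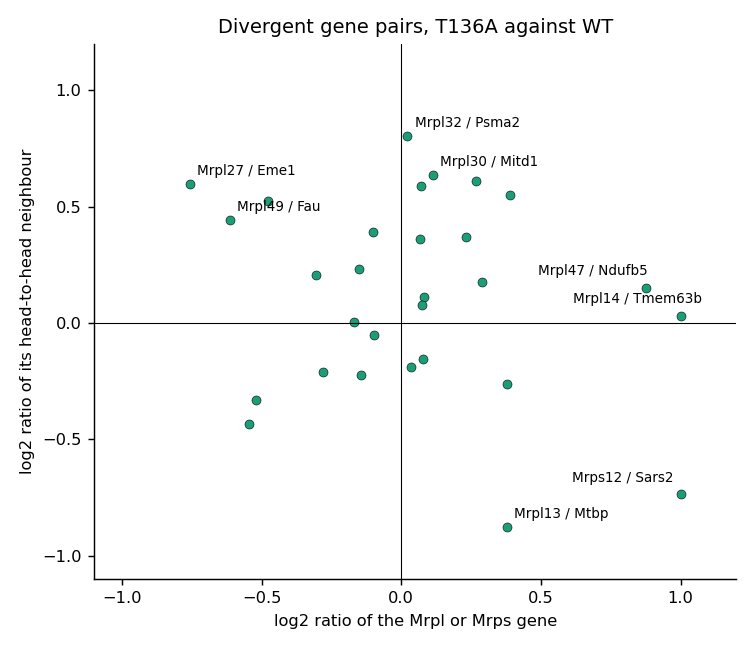
Log2 ratio (RPKM plus 1) of T136A over WT for 29 head-to-head pairs, with the mitochondrial ribosomal protein gene on the horizontal axis and its neighbour on the vertical axis; each point is 1 pair. Points lie on every side of the crossing lines, 17 with the same sign and 12 with opposite signs, with Mrps12 and Sars2 at the lower right.

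The sequences at these starts are shown for the pair that split most, for a member with a pair of GABP matches beside a higher neighbour, for the strongest member in WT and for a lower member with an NRF1 match. Promoter windows (250 bases before to 50 after each start, RefSeq, GRCm38.p6) were matched for 68 members in 74 windows. The stretches printed lie in no GENCODE M21 exon and run 5′ to 3′ on the member's strand. The neighbours Twnk and Oaz3 start inside Mrpl43 and Mrpl9, so the stretches of these members do not lie between the starts of a pair. Capitals mark CCAAT or its complement ATTGG (bound by NF-Y), CCGGAAG (GABP), CACGTG (MYC and its relatives) and, at the end of the Mrpl9 stretch, the 10-base NRF1 palindrome.
Mrps12, chr7:28741822-28741991, minus strand: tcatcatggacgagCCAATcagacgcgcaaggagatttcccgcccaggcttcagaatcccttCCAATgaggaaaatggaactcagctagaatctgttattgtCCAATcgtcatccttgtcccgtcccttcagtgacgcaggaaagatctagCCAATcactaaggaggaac
Mrpl43, chr19:45006443-45006557, minus strand: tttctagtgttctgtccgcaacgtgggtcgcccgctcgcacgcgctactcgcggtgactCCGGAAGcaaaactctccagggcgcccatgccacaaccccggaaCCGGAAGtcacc
Mrpl2, chr17:46646023-46646220, plus strand: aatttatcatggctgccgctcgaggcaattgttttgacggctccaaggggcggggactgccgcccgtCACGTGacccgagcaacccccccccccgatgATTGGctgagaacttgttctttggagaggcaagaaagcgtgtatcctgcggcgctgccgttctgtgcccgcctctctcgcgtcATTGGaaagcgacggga
Mrpl9, chr3:94443086-94443317, plus strand: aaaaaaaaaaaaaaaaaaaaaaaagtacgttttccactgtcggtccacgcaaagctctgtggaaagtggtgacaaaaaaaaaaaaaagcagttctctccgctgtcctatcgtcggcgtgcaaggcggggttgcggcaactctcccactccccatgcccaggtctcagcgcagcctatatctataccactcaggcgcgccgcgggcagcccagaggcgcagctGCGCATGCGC

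The Mrps12 and Sars2 region holds CCAAT 4 times on the Mrps12 strand within 170 bases. The whole Mrps12 window also holds CCGGAAG and the YY1 motif AAGATGGC, both outside the printed stretch. Of all 32851 promoter windows, 1.06% held at least 4 matches to CCAAT on either strand, and of the members' windows only that of Mrps12 did. Motifs were searched on both strands of the whole window. CCGGAAG was found in 33.8% of the members' windows and 8.86% of all windows. AAGATGGC, a YY1 motif, was found in 16.2% of the members' windows and 2.75% of all windows. The NRF1 palindrome was found in 4.05% of the members' windows and 0.971% of all windows. CACGTG was found in 9.46% of the members' windows and 7.15% of all windows. The 7 members' windows with CACGTG include several of Mrpl2, as do those with CCAAT, so these shares count windows and not genes. TGATGNAA, an ATF4 motif, was found in 0 of the members' windows and 3.97% of all windows. CCAAT was found in 39.2% of the members' windows and 37.4% of all windows. All windows include those of genes that these cells hardly express, and a match is a description of letters, not a bound site.

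Other parts of the mitochondrial translation system were measured from lists. Proteins of the mitochondrial ribosome under other symbols had a median log2 ratio of 0.15 over 5 genes, with 0 at least 1.5-fold higher or lower (10.4% and 11.3% of all genes). Dap3, a small subunit protein that binds GTP, had 36.4 RPKM in T136A and 35.2 RPKM in WT. Ptcd3 and Chchd1, both of the small subunit, had log2 ratios of 0.33 and 0.35, Aurkaip1 one of 0.15 and Gadd45gip1, of the large subunit, one of -0.30. Assembly factors and RNA-modifying enzymes of the ribosome had a median of -0.13 over 34 genes, or -0.01 with upper-quartile scaling. Of these 34 genes 11 were above 0 (47.4% of all genes) and 23 below, 2 were at least 1.5-fold higher (10.4% of all genes) and 3 at least 1.5-fold lower (11.3% of all genes); with upper-quartile scaling 17 were above 0. Mrm1, which methylates the large ribosomal RNA, stood at 9.21 RPKM in T136A and 19.4 RPKM in WT. The pseudouridine synthase genes Trub2 and Rpusd4 had log2 ratios of -0.67 and -0.67. Noa1, a GTPase of ribosome assembly, stood at 12.8 RPKM in T136A and 6.10 RPKM in WT, and Rbfa, which matures the small subunit, at 59.5 RPKM in T136A and 32.9 RPKM in WT. Malsu1, which in human cells binds Mrpl14 during assembly, had 10.3 RPKM in T136A and 11.5 RPKM in WT, while Mrpl14 was 2.08-fold higher.

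Factors of mitochondrial translation and of the mitochondrial genome, which include DNA replication genes, lay mostly above 0 in log2 ratio, many of them by little. Of 25 translation and mitochondrial genome factors at or above 1 RPKM, 22 were above 0 (47.4% of all genes), 4 were at least 1.5-fold higher (10.4% of all genes) and 0 at least 1.5-fold lower (11.3% of all genes), with a median log2 ratio of 0.14. Tufm, the elongation factor that brings transfer RNA to the ribosome, stood at 133 RPKM in T136A and 51.0 RPKM in WT. Gfm1, the elongation factor of translocation, had 36.2 RPKM in T136A and 20.8 RPKM in WT, and the single-stranded DNA binding protein Ssbp1 had 10.2 RPKM in T136A and 5.46 RPKM in WT. Tfam, which packages mitochondrial DNA, had 25.4 RPKM in T136A and 24.3 RPKM in WT. Cox18, Polg and Gfm2 were the lowest, with log2 ratios of -0.30, -0.19 and -0.03. Of the 21 factors with whole reads in both libraries, 9 had a counting interval above 1 (31.7% of all genes). The interval lay below 1 for 2 factors (36.9% of all genes) and held 1 for 10 (31.1% of all genes).

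RNAs of the mitochondrial genome were also read. The ribosomal RNA mt-Rnr1 stood at 299 RPKM in T136A and 175 RPKM in WT, and mt-Rnr2 at 332 RPKM in T136A and 193 RPKM in WT. Of 14 mitochondrial RNAs at or above 1 RPKM, 13 were above 0 (47.4% of all genes), with a median log2 ratio of 0.27. The exception was mt-Co1, the most abundant, at 11781 RPKM in T136A and 12213 RPKM in WT; with upper-quartile scaling all 14 were above 0. Beside them the ribosomal protein genes had a median of 0.04. Mouse chromosome 1 carries a near-identical copy of part of the mitochondrial genome, and mt-Atp8 was listed at 0 in both libraries, so single values of these RNAs are uncertain.

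Like gene groups differed in their medians. Cytosolic ribosomal protein genes had a median log2 ratio of -0.14 over 83 genes, with 62 below 0 (52.6% of all genes); with upper-quartile scaling the median was 0.01 and 40 were below 0. Nuclear respiratory chain genes had a median of -0.03 over 81 genes, or 0.01 with median-of-ratios and 0.12 with upper-quartile scaling. The mitochondrial ribosomal protein genes had 0.04, or 0.08 with median-of-ratios and 0.19 with upper-quartile scaling. With 1 library per genotype the differences between these medians were not tested.

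**Figure D5:**
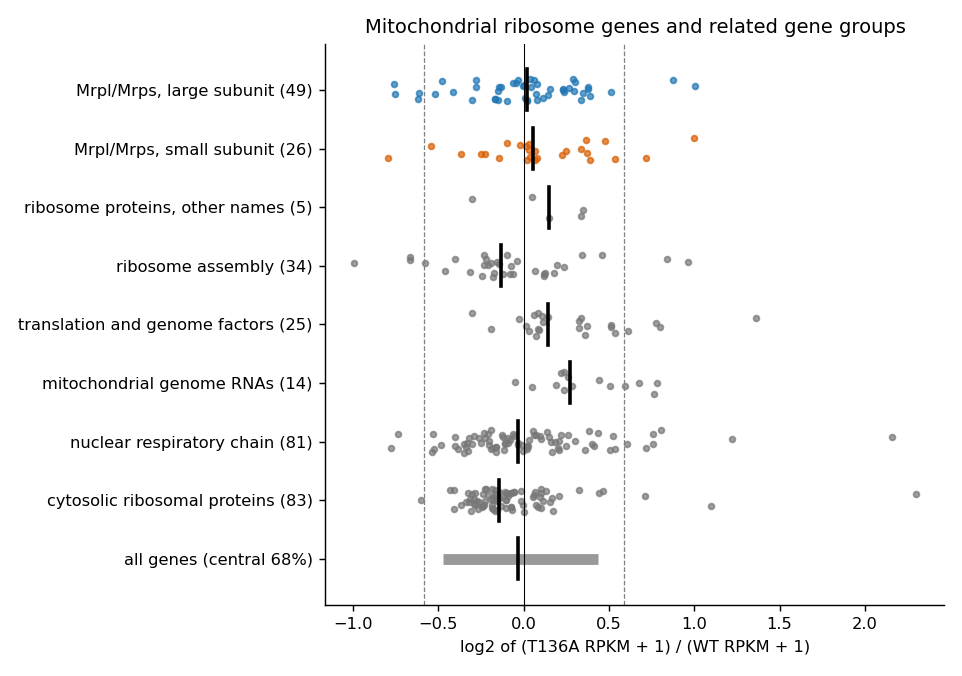
Log2 ratio of T136A over WT (horizontal, RPKM plus 1) for the genes of each group at or above 1 RPKM, with the number of genes in brackets; each point is a gene and black bars are medians. The grey bar spans the central 68% of all genes, dashed lines mark 1.5-fold, and the medians of the large and small subunit genes are 0.02 and 0.05.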

How the data were processed

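Libraries of E14.1 cells were made from total RNA with an Illumina TruSeq RNA kit, per the labels' protocols. The authors deposited RPKM values, 1 per Ensembl gene and library, made before deposit from gene read numbers divided by exon length and library total. This unit comes from the values, since each value times the GENCODE M21 exon length and a constant was whole, within 0.01, for 90.0% of positive T136A and 89.9% of positive WT values. The submitters' processing notes name CASAVA 1.8 and mm9 without a role; which aligner and counter were used is not given in the sources read here. Coordinates are those of GENCODE M21 (GRCm38). Symbols matched 25696 identifiers. Genes were compared where either library reached 1 RPKM, with 1 RPKM added. No test was run on 1 library per genotype, so counts past 1.5-fold stand beside those of all genes. Reads are not independent molecules. Copies were searched with blastn 2.17.0, and numbers were computed with pandas 2.3.3 and scipy 1.17.1, tested on simulated data. Any member may be named; of other lists, up to 3 genes at each end, all mitochondrial RNAs, Dap3, Ptcd3, Chchd1, Aurkaip1, Gadd45gip1, Nrf1, Gabpa, Tfam, Myc, Atf4, Ppargc1a, Ppargc1b and Pprc1 may be. Malsu1, the marker genes, the neighbours, the copies and the CCAAT motif were chosen after values or sequences were seen. The members and lists were chosen with earlier results of these data known.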

Additional observations from a re-analysis of the deposited data

How the results depend on the processing

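For the 4 values on all members (counts higher and lower, median, large minus small), 41 of 48 results under 12 alternatives stayed within their limits, and the other 7 follow. For counts the limit was a 1.5-fold change. For medians the limits came from a 95% binomial interval over genes, which share the libraries and are not replicates. For single genes they came from the counting interval, or from a fixed margin where it was lacking. Some alternatives could hardly move these values: summing identifiers of a shared symbol left all 4 unchanged, and dropping the minimum added only Mrpl33. The medians of the 8 other lists were run under 3 of the alternatives (both pseudocounts and median-of-ratios scaling), where 24 of 24 stayed within their limits. The nuclear respiratory chain median changed sign, at -0.03 and 0.01. Upper-quartile scaling, added for these lists after seeing the data, put the cytosolic ribosomal protein median at 0.01 and the nuclear respiratory chain median at 0.12. Upper-quartile scaling, which moved the median of all genes by 0.13, put 7 members at least 1.5-fold higher (adding Mrps25, Mrpl58 and Mrps23) and the members' median at 0.19. Leaving out members overlapped over at least 10% by another gene, an alternative chosen after seeing the data, left 1 higher. Only 3 members were at least 1.5-fold lower with 5 RPKM added, median-of-ratios scaling, upper-quartile scaling or TMM scaling, as Mrpl38 and Mrpl49 crossed the line. The members' median ran from 0.03 to 0.19, the large minus small difference from -0.04 to -0.02, and members above 0 from 46 to 57 of 76 across scalings. Of 532 single-gene values 472 stayed within their limits. Removing members with near-identical copies, also chosen afterwards, left 4 higher and 4 lower. No paired analysis was possible because each genotype had 1 library. Depth limits Mrps18c and Mrpl33 most, and counting intervals leave out variation between cultures.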

Other observations

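Regulators of mitochondrial biogenesis stood on both sides. Myc, a growth regulator whose targets include ribosome genes, stood at 17.7 RPKM in T136A and 2.27 RPKM in WT. Pprc1, a coactivator of the NRF1 pathway, had 20.1 RPKM in T136A and 12.9 RPKM in WT. Nrf1 itself had 7.13 RPKM in T136A and 9.11 RPKM in WT, and Gabpa, the DNA-binding part of GABP, had 18.6 RPKM in T136A and 15.9 RPKM in WT. Ppargc1a was listed at 0 in T136A and at 0.00867 RPKM in WT, and Ppargc1b had 0.736 RPKM in T136A and 0.444 RPKM in WT. The stress factors Atf4, Atf5 and Ddit3 had log2 ratios of -1.53, -1.77 and -1.90. Of 15 regulators at or above 1 RPKM, 2 were at least 1.5-fold higher (10.4% of all genes) and 3 lower (11.3% of all genes). Above 0 were 7 (47.4% of all genes) and below 0 were 8. The median log2 ratio of -0.31 was the value of Nrf1, the middle gene. With 5 RPKM added the median was -0.16, and with upper-quartile scaling -0.18.

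Genes of mitochondrial membranes, import and the citric acid cycle, taken as markers of mitochondrial content, had a median log2 ratio of 0.22 over 22 genes, with 6 at least 1.5-fold higher (10.4% of all genes) and 1 lower (11.3% of all genes). Phb, a prohibitin of the inner membrane, stood at 275 RPKM in T136A and 116 RPKM in WT, the malate dehydrogenase gene Mdh2 at 120 RPKM in T136A and 66.2 RPKM in WT, and the carrier gene Slc25a5 at 395 RPKM in T136A and 228 RPKM in WT. Timm50, an import receptor, had 38.1 RPKM in T136A and 69.9 RPKM in WT. The median of these content markers was 0.15 with quantile normalization and 0.37 with upper-quartile scaling. The mitochondrial ribosomal protein genes, with a median of 0.04, lay below these content markers in median, a difference that was not tested.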
